A study of Triticum aestivum with 18 samples.

Results

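The data described here are the grain transcriptomes of bread wheat (Triticum aestivum, allohexaploid, with the subgenomes A, B and D) at the grain filling stage, after 2 treatments. The first is taken here as low and the second as high supply of assimilates per grain, which was not measured. In the shaded defoliated plants the spikes were kept in shade and every leaf was taken off. Shade and leaf removal came together, so they cannot be told apart. In the partial removal plants 0.5 of each spike was cut away, and the grains came from what was left. Each group had 3 libraries. Grain of untreated plants (control, 3 libraries) stands beside both, and the other 9 of the 18 libraries of the series come from leaves and are not used here. The labels name no cultivar, no duration of treatment, no grain position and no day of sampling, and nothing in them states if replicate libraries stem from different plants or from pools, so p-values measure only the spread between these libraries. Loci were taken when the deposited table gave them a gene name and an FPKM (fragments per kilobase of transcript, scaled to the mapped fragments of the library) of at least 1 in at least 3 of the 6 compared libraries. This left 34682 of 97029 named loci, in a table of 115478 loci, and 43046 loci with and without a name passed the same filter and were tested together. Of the 34682 loci, 6593 carried a description and 22553 a GO term.

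A filling wheat grain imports sucrose made in leaves and in the green spike. Sucrose synthase cleaves the sucrose in the growing tissue, starch synthases build the granules of the endosperm, and the gliadins and glutenins of the protein bodies take up nitrogen late in filling. Cell number in the endosperm is set early, while DNA replication is still running, and the import of sugar, light and hormones such as cytokinin and auxin are all known to act on grain growth.

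Values below are FPKM divided by a median-ratio scaling factor per library (scaled FPKM), and differences are log2(scaled FPKM + 1) of shaded defoliated grain minus that of partial removal grain, so a positive value is higher in shaded defoliated grain and small values are compressed. Shaded defoliated library 2 stood apart. Loci without a gene name held 89.9% of its FPKM sum, against 24.4% to 37.3% in the other 5 compared libraries and up to 55.4% in the control libraries, and 24435 of the 34682 loci were below an FPKM of 1 in it. Its scaling factor was 0.232, while its depth, read from the steps of the lowest FPKM values, was 0.949 of that of shaded defoliated library 1 and so lay within the range of 0.886 to 1.01 in the 9 grain libraries. The part of this library in the results was measured by leaving it out. Markers of grain were present. The summed level of 13 gliadin and glutenin loci lay between 584 and 1503 scaled FPKM in shaded defoliated grain. It lay between 1971 and 2519 in partial removal grain and 3991 and 5467 in control grain. The summed level of 23 embryo and aleurone loci lay at 1468 to 1887, 1747 to 2049 and 1648 to 2907. That of 18 loci for light harvesting and photosystem proteins, which mark green tissue, and for ferredoxin lay at 64.7 to 87.4, 67.3 to 80.5 and 71.8 to 92.4. Ferredoxin MSTRG.48887 alone held 35.9, 27.2 and 18.8 of it in shaded defoliated grain and 22.9, 23.6 and 26.8 in partial removal grain.

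Between shaded defoliated and partial removal grain, 71 of 34682 loci (0.205%) changed at an adjusted p under 0.05 (limma, Benjamini-Hochberg over all 43046 loci tested). Shaded defoliated grain was higher at 10 loci (0.0288%) and lower at 61 (0.176%), and 50 of the 71 differed by 2-fold or more. The median difference over all 34682 loci was 0.01, and before adjustment 2361 loci (6.81%) were higher and 2395 (6.91%) lower at p under 0.05. The scaling centres the loci, so the median and this split are largely fixed by it: the split was 85 higher and 2662 lower without scaling, 1804 and 2757 under quantile normalization, and 1233 and 664 with a minimum FPKM of 5. Of the 71 called loci, 21 passed the filter through the 3 partial removal libraries alone and 1 through the 3 shaded defoliated libraries alone. Among all 34682 loci these numbered 782 and 7. The filter thus let in far more loci of the first kind, and the 61 falls and 10 rises are not free of this. The 22 called loci had to differ in FPKM before scaling. The same is meant wherever a locus below had to differ. None of the 61 called falls and 10 called rises overlapped between the groups in scaled FPKM. Over all loci, 10.8% were higher and 9.56% lower without overlap. For a called locus, a lack of overlap therefore adds nothing to the call. Without shaded defoliated library 2 the count of called loci was 34, and 22 of the 71 were still called. In bulk grain, fewer cells of a type and less RNA per cell cannot be told apart.

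**Figure D1:**
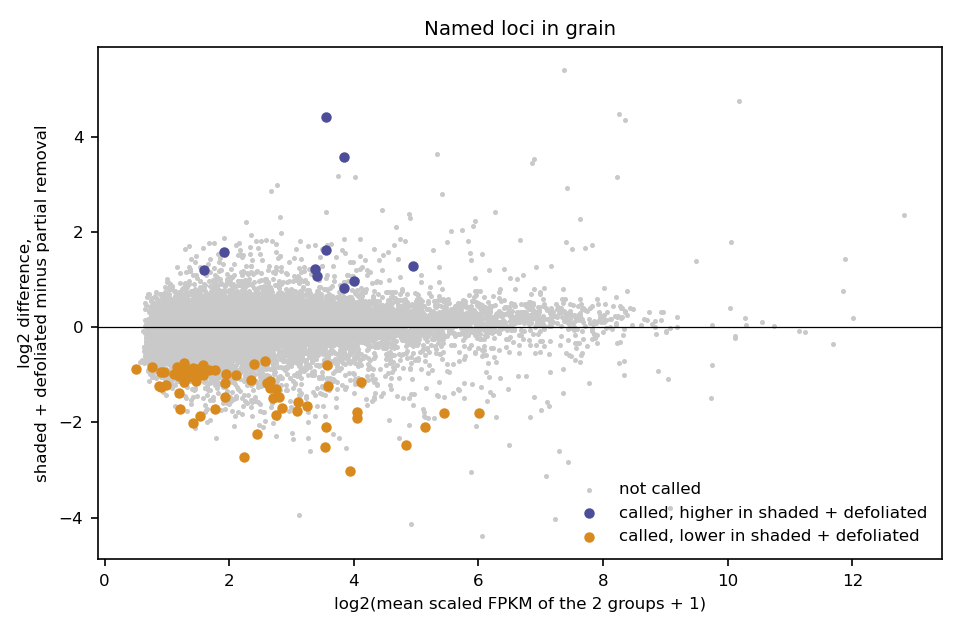
Difference in log2(scaled FPKM + 1) between shaded defoliated and partial removal grain (vertical axis) against the log2 of the mean scaled FPKM of both groups plus 1 (horizontal axis) for 34682 named loci, each point a locus. The 61 called falls lie below the zero line and the 10 called rises above it, most of both at low to middle levels, while the grey cloud is centred near 0.

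Control grain lay nearer to partial removal grain at most of these loci. At the 61 loci that fell, the mean of control grain lay between both groups at 42, above both at 18 and below both at 1, and it was nearer to partial removal grain at 57. At the 10 that rose it lay between at 9 and below both at 1, and it was nearer to partial removal grain at 7. Shaded defoliated grain differed from control grain at 595 of 34682 loci (1.72%), of which 105 were higher (0.303%) and 490 lower (1.41%). Partial removal grain differed from it at 8 loci (0.0231%), 3 higher (0.00865%) and 5 lower (0.0144%). Before adjustment, 2606 (7.51%) were higher and 3260 (9.4%) lower in shaded defoliated than in control grain, and 699 (2.02%) were higher and 1504 (4.34%) lower in partial removal than in control grain. The comparisons share libraries, and their counts are given side by side only. The called loci lay on every subgenome, with 21 of 10954 on A (1 higher, 20 lower), 25 of 11165 on B (1 and 24) and 21 of 11072 on D (7 and 14).

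Of the genes for sucrose cleavage, 1 fell. Sucrose synthase MSTRG.17070 on 2BS had 1.52, 1.84 and 2.47 scaled FPKM in shaded defoliated grain, against 8.84, 11.2 and 8.55 in partial removal grain and 9.08, 8.35 and 5.60 in control grain. The groups did not overlap, and control grain stood with partial removal grain. It fell by 1.84 ± 0.19 (SE) on the log2 scale (adjusted p = 0.0145, limma), and by 1.55 against control grain (adjusted p = 0.00855); without partial removal library 2 the call was lost. The locus on 2AS (MSTRG.12880) held 2.04, 2.29 and 2.79 in shaded defoliated grain and 5.21, 7.37 and 6.72 in partial removal grain, which did not overlap either, with a difference of -1.14 (adjusted p = 0.0555). Not all loci of the family went this way. Of 10 sucrose synthase loci, 1 was called lower and 0 higher, 4 were lower and 2 higher before adjustment, and their median was -0.37. The highest of them, MSTRG.42256 on 4DL, held 26.7, 47.6 and 43.4 in shaded defoliated grain and 26.2, 20.3 and 23.6 in partial removal grain, a difference of 0.69 (adjusted p = 0.270). The summed level of the 10 loci was 79.7, 104.5 and 96.7 in shaded defoliated grain and 88.6, 94.4 and 97.3 in partial removal grain, so the groups overlapped in the total.

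Starch synthesis gave no called locus among 33, with 3 higher and 5 lower before adjustment and a median of 0.01. Its highest locus, glucose-1-phosphate adenylyltransferase MSTRG.934 on 1AL, had a difference of 0.01 (adjusted p = 0.994, limma). The single loci below were picked after their values were seen. Starch synthases, which lengthen the glucan chains of the granule, held 6 loci, of which 4 had differences below 0 (3 of them lower before adjustment) and 2 above 0, up to 0.37. MSTRG.3852 on 1BL held 3.37, 0.785 and 1.78 scaled FPKM in shaded defoliated grain, 10.2, 6.96 and 11.95 in partial removal grain, and 31.6, 21.2 and 15.4 in control grain. The 3 groups were apart from each other, in that order. Its difference was -1.91 (adjusted p = 0.0918), and it fell by 3.03 against control grain (adjusted p = 0.00770). MSTRG.73927 on 7DS (-1.59, adjusted p = 0.134) and MSTRG.66492 on 7AS (-1.39, adjusted p = 0.233) were lower in each shaded defoliated than in each partial removal library. A locus on 2AL described as granule-bound starch synthase 1 (MSTRG.10613) held 16.8, 18.5 and 18.0 in shaded defoliated grain. These values were above the 13.6, 13.6 and 12.8 of partial removal grain, with a difference of 0.39 (adjusted p = 0.205, limma). Trehalose 6-phosphate phosphatases, sugar transporters and enzymes of starch breakdown held 0 called of 7, 26 and 43, with 0 higher and 2 lower, 2 and 3, and 1 and 3 before adjustment.

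Among the seed proteins, the inhibitor CM3 fell. CM3 (MSTRG.38762 on 4BL) is a small endosperm protein that blocks amylase and trypsin of insects. It had 16.04, 8.78 and 12.4 scaled FPKM in shaded defoliated grain, against 52.2, 44.2 and 72.4 in partial removal grain and 121, 67.4 and 71.8 in control grain. Shaded defoliated grain lay below all other libraries. It fell by 2.10 ± 0.30 on the log2 scale against partial removal grain (adjusted p = 0.0436, limma), a call that was lost when any 1 of the 6 libraries was left out, and by 2.70 against control grain (adjusted p = 0.00654).

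The gliadins and glutenins themselves gave 0 called of 13, with 0 higher and 4 lower before adjustment and a median of -0.76. Without shaded defoliated library 2 that median was -0.14, under quantile normalization it was -1.45 (-1.43 relative to all loci), and without scaling -1.66 (-1.14 relative to all loci). The highest of the 13, alpha/beta-gliadin MSTRG.58222 on 6AS, had a difference of -1.09 (adjusted p = 0.882, limma). It was listed at 0 in control libraries 1 and 3. The glutenin and gliadin loci that follow were picked after their values were seen. A low molecular weight glutenin subunit on 1BS (MSTRG.6164) held 59.0, 48.1 and 97.3 in shaded defoliated grain, 206, 166 and 255 in partial removal grain and 718, 386 and 635 in control grain. The 3 groups did not overlap, and the difference of -1.65 had an adjusted p of 0.131. An alpha/beta-gliadin on 6BS (MSTRG.61551) held 30.5, 21.2 and 31.2 in shaded defoliated grain and 72.3, 89.4 and 75.1 in partial removal grain, with a difference of -1.50 (adjusted p = 0.102). Globulin 1 on 1BL (MSTRG.4150) had a difference of -1.22 (adjusted p = 0.177). Against control grain MSTRG.6164, MSTRG.61551 and MSTRG.4150 fell by 3.09, 2.12 and 2.66 (adjusted p = 0.00770, 0.0132 and 0.00805, limma). The median of the 13 loci was -2.20 in shaded defoliated and -1.43 in partial removal grain, each minus control grain. Gliadin and glutenin loci are near-identical copies, several were listed at 0 in single libraries, and reads may have been split between them, so single loci are uncertain. By GO term, nutrient reservoir activity held 0 called of 49, 1 higher and 12 lower before adjustment, and a median of -0.22, which was -1.05 under quantile normalization (-1.03 relative to all loci), -0.52 relative to all loci without scaling, and -0.14 without shaded defoliated library 2. Of the 49 loci, 17 had differences above 0 and 32 below 0. Their summed level was 21130, 20340 and 14130 scaled FPKM in shaded defoliated grain. It was 19880, 18290 and 21800 in partial removal grain, so the groups overlapped in the total.

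A small set of genes rose. GTPase SAR1 (MSTRG.54444 on 5DS), the small GTPase that starts the coat of vesicles leaving the endoplasmic reticulum, had 50.5, 42.9 and 35.4 scaled FPKM in shaded defoliated grain, against 17.4, 13.7 and 20.3 in partial removal grain. Control grain, with 36.4, 38.7 and 42.2, stood with shaded defoliated grain here. The rise was 1.28 ± 0.18 (adjusted p = 0.0436, limma). Diacylglycerol kinase MSTRG.32514 on 3DL, which turns the lipid messenger diacylglycerol into phosphatidic acid, had 12.6, 14.5 and 13.2 in shaded defoliated grain, 6.86, 4.87 and 5.93 in partial removal grain, and 6.76, 6.01 and 6.11 in control grain. Shaded defoliated grain stood apart from both others. It rose by 1.08 ± 0.13 (adjusted p = 0.0220), the only call among 17 loci with that description, whose median was -0.05.

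**Figure D2:**
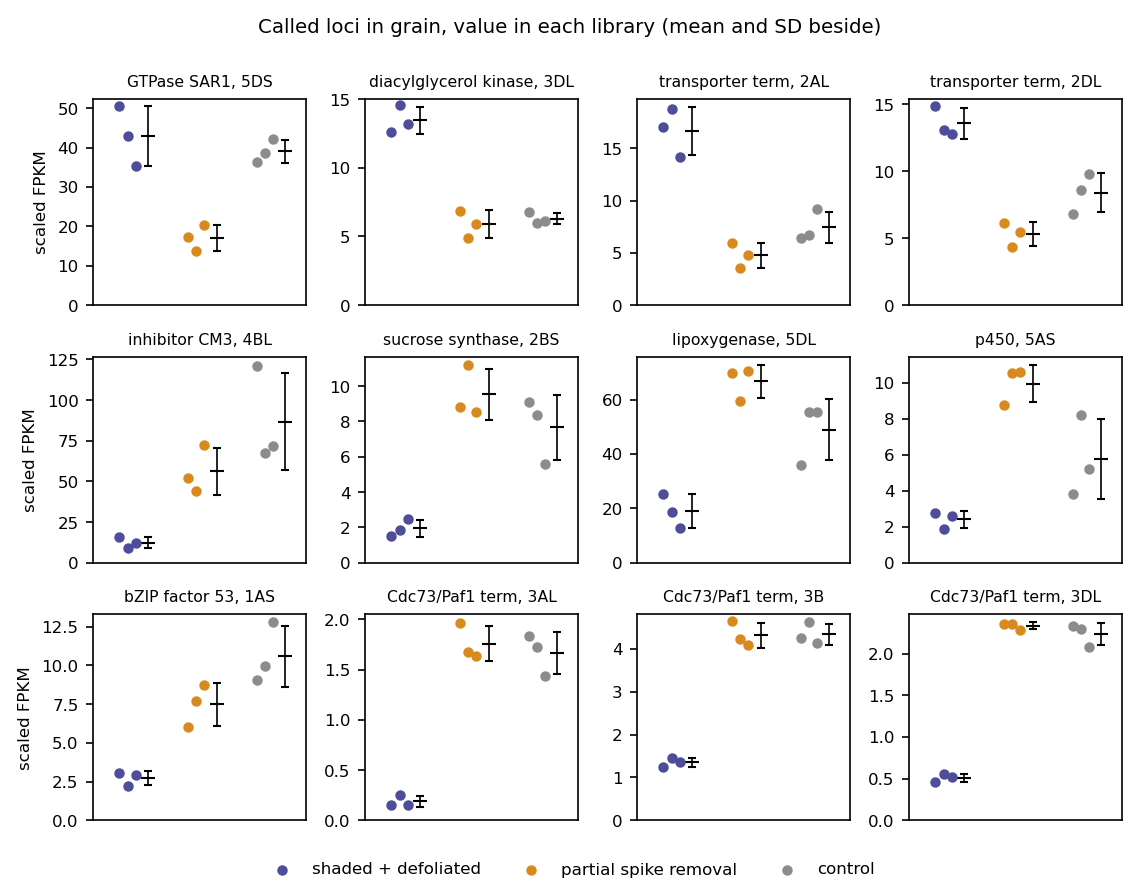
Scaled FPKM of 12 called loci in each grain library (points), with the mean and SD of each group of 3 beside them: shaded defoliated, partial removal and control grain from left to right in each panel. Shaded defoliated grain does not overlap partial removal grain in any panel, as at all called loci. For the Paf1 loci on 3AL and 3DL the filter fixed this in FPKM before scaling. For GTPase SAR1 control grain lies with shaded defoliated grain, at 36.4 to 42.2.

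A pair of rises lay on matching arms of different subgenomes. MSTRG.11634 on 2AL and MSTRG.20006 on 2DL, both without a description and both with the GO term transporter activity, were chosen after their values were seen. The 2AL locus had 17.0, 18.8 and 14.2 in shaded defoliated grain, against 5.96, 3.54 and 4.83 in partial removal grain, and rose by 1.63 ± 0.19 (adjusted p = 0.0220, limma). The 2DL locus had 14.9, 13.1 and 12.7 in shaded defoliated grain, against 6.13, 4.34 and 5.48 in partial removal grain, and rose by 1.21 ± 0.15 (adjusted p = 0.0261). The groups did not overlap at either locus, and control grain lay between them at both. The calls of GTPase SAR1 and the 2DL transporter were lost when any 1 of the 6 libraries was left out, that of the 2AL transporter in all but 1 case, and that of the diacylglycerol kinase without shaded defoliated library 2 or 3 or partial removal library 2 or 3.

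Even falls came from loci annotated to the Paf1 complex, a set of proteins that travels with RNA polymerase II and is needed for histone modification along transcribed genes. They carry no description and were chosen after their values were seen. MSTRG.24380 on 3AL had 0.156, 0.253 and 0.156 scaled FPKM in shaded defoliated grain, against 1.96, 1.67 and 1.64 in partial removal grain and 1.83, 1.73 and 1.43 in control grain. MSTRG.28939 on 3B had 1.25, 1.45 and 1.36 in shaded defoliated grain, against 4.63, 4.21 and 4.08 in partial removal grain and 4.24, 4.62 and 4.14 in control grain. MSTRG.32415 on 3DL had 0.459, 0.554 and 0.522 in shaded defoliated grain, against 2.36, 2.36 and 2.29 in partial removal grain and 2.33, 2.30 and 2.08 in control grain. All 3 loci lie on group 3 chromosomes of the 3 subgenomes, and at each of them control grain lay beside partial removal grain and far from shaded defoliated grain. They fell by 1.21, 1.17 and 1.14 on the log2 scale (adjusted p = 0.00560, 0.00515 and 0.00492, limma). The loci on 3AL and 3DL were below an FPKM of 1 in all 3 shaded defoliated libraries and passed the filter through partial removal grain alone, so they had to differ, and their p-values and the lack of overlap support nothing. The 3B locus passed in both groups, and its call held with any 1 library left out and with the replicate number as a block, but not without scaling. The other 16 of 19 loci with the term Cdc73/Paf1 complex were not called, and the median of the 19 was -0.05.

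DNA replication showed a shared direction without a call. All 17 named loci described as DNA replication licensing factor (MCM2 to MCM7, the subunits of the helicase that opens DNA at replication origins) passed the filter. Their summed level was 30.5, 21.4 and 20.7 scaled FPKM in shaded defoliated grain, against 69.0, 113 and 109 in partial removal grain. Control grain spread widely, with 46.4, 100 and 19.6. At 17 of 17 loci each shaded defoliated library was below each partial removal library, where 9.56% of all loci were, and all 17 had an unadjusted p under 0.05, where 6.91% of all loci were lower. Differences ran from -1.86 to -1.13 with a median of -1.48, and adjusted p from 0.102 to 0.231. With the control libraries left out of the fit, 6 of the 17 were called. The loci share a family and were picked after their values were seen, and 2 passed the filter through partial removal libraries alone.

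Single subunits showed the same layout. MCM4 on 3AL (MSTRG.23804) had 1.90, 1.45 and 1.39 in shaded defoliated grain, against 5.04, 7.68 and 7.44 in partial removal grain, a difference of -1.57 (adjusted p = 0.102). MCM2 on 1AL (MSTRG.1871) had 2.15, 1.66 and 1.49, against 5.72, 8.53 and 8.35 in partial removal grain, a difference of -1.62 (adjusted p = 0.134). Partial removal library 1 was the lowest of its group at both. The GO term DNA replication, with 127 loci, held 0 called, 4 higher (3.15%) and 41 lower (32.3%) before adjustment and a median of -0.12. The term takes in MCM loci, among them its lowest difference of -1.86, so its share of lower loci is not separate from theirs. Among the 4 were 2 loci for DNA ligase 4, which joins broken DNA ends, on 2AL and 2DL (differences of 0.41 and 0.31). The GO term nucleosome, whose histones package new DNA, held 0 called of 124, 2 higher and 7 lower before adjustment, and a median of -0.04, and cyclins and mitosis held 0 called of 42, with 1 and 2.

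**Figure D3:**
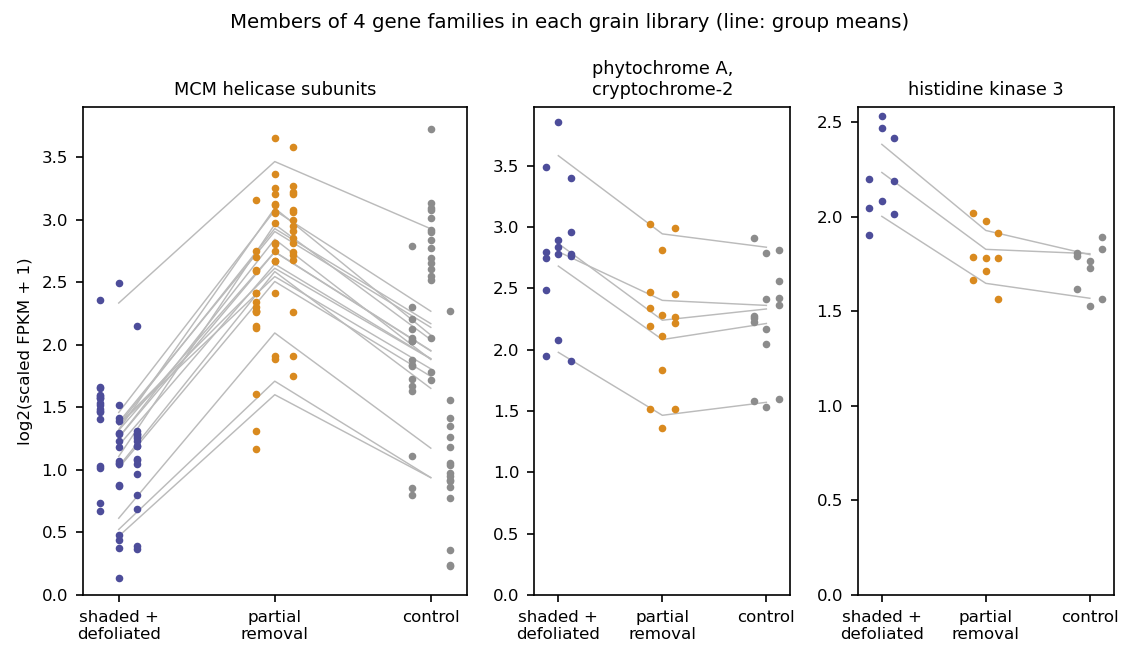
Log2(scaled FPKM + 1) in each grain library of the 17 MCM helicase loci (left), of 2 phytochrome A and 3 cryptochrome-2 loci (middle) and of 3 histidine kinase 3 loci (right), with grey lines joining the group means of a locus. Each MCM line is lower in shaded defoliated than in partial removal grain, and each line of the other families is higher in shaded defoliated grain, which without scaling holds only relative to the median of all loci.

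Light receptors went the other way, again short of the threshold. Phytochrome A and cryptochrome-2 sense red and blue light. Phytochrome A on 4AL (MSTRG.35870) had 10.2, 13.5 and 9.55 scaled FPKM in shaded defoliated grain, against 7.14, 6.01 and 6.97 in partial removal grain and 6.52, 5.89 and 6.004 in control grain. The groups did not overlap. The difference was 0.64 (adjusted p = 0.117), and it rose by 0.75 against control grain (adjusted p = 0.0335). Cryptochrome-2 held 3 loci, on 6AL, 6BL and 6DL (MSTRG.56809, MSTRG.58290 and MSTRG.62461), with differences of 0.51, 0.60 and 0.63 (adjusted p = 0.0858, 0.154 and 0.111). Their summed level was 13.15, 15.5 and 15.4 in shaded defoliated grain and 9.51, 7.47 and 9.30 in partial removal grain, which do not overlap. In all, light perception and clock genes held 0 called of 17, 5 higher (29.4%) and 0 lower before adjustment, where 6.81% of all loci were higher. These 5 were the 2 phytochrome A and 3 cryptochrome-2 loci, and both families were picked with their values known. Of the 17 loci, 11 had differences above 0 and 6 below 0, with a median of 0.10. Without any scaling all 5 of these receptor loci had differences below 0, while the median of all loci then moved by -0.53, and relative to that median they stayed above it.

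Hormone genes held 2 calls. Auxin response factor MSTRG.66621 on 7AS, of the family that binds auxin-responsive promoters, had 3.28, 2.47 and 2.85 in shaded defoliated grain, against 5.93, 5.24 and 5.74 in partial removal grain and 4.54, 4.34 and 4.68 in control grain. The 3 groups were apart, with control grain in the middle. It fell by 0.78 ± 0.10 (adjusted p = 0.0321, limma), 1 of 46 loci with that description and 1 of 89 auxin genes called, whose median was -0.04. Lipoxygenase MSTRG.53511 on 5DL, of the family that oxygenates fatty acids on the way to jasmonate among other products, had 25.2, 18.8 and 12.9 in shaded defoliated grain, against 69.9, 59.6 and 70.6 in partial removal grain and 36.1, 55.5 and 55.2 in control grain. It fell by 1.81 ± 0.26 (adjusted p = 0.0436). The lipoxygenase on 5AL (MSTRG.44050) had 2.28, 1.95 and 1.26, against 6.95, 5.61 and 7.78 in partial removal grain, a difference of -1.47 (adjusted p = 0.0535). Neither overlapped between the groups. Jasmonate genes, 14 of them lipoxygenases, held 1 called of 21, 0 higher and 8 lower (38.1%, against 6.91% of all loci) before adjustment, and a median of -0.23. Of the 14 lipoxygenases, 4 passed the filter through partial removal grain alone and so had to differ, which adds to the share of lower loci. The calls of the auxin response factor and of the 5DL lipoxygenase held in 1 of the 6 fits that leave out a library. Of the 5 cytokinin genes 0 were called, and 4 were higher before adjustment, among them the 3 loci of histidine kinase 3, a cytokinin receptor, on 3AL, 3B and 3DL, with differences of 0.35, 0.41 and 0.46 (adjusted p = 0.178, 0.219 and 0.159); without scaling the median of the 5 was -0.21, and 0.31 relative to all loci.

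A transcription factor and a ubiquitin ligase fell with them. bZIP transcription factor 53 (MSTRG.3012 on 1AS), whose Arabidopsis namesake activates seed maturation genes, had 3.08, 2.22 and 2.94 in shaded defoliated grain, against 6.03, 7.69 and 8.75 in partial removal grain and 9.04, 9.93 and 12.8 in control grain. Control grain was highest. It fell by 1.17 ± 0.17 (adjusted p = 0.0444, limma), and by 1.62 against control grain (adjusted p = 0.00570). E3 ubiquitin-protein ligase MSTRG.51614 on 5DL, which marks proteins for breakdown, had 1.93, 2.03 and 2.67 in shaded defoliated grain, against 5.06, 6.85 and 6.02 in partial removal grain and 4.90, 6.41 and 6.59 in control grain. It fell by 1.12 ± 0.15 (adjusted p = 0.0321), and control grain lay with partial removal grain. Both calls were lost when any 1 of the 6 libraries was left out. The other locus described as bZIP transcription factor 53, on 5BS (MSTRG.50863), had a difference of 1.07 (adjusted p = 0.811), with 18.6, 12.7 and 15.5 in shaded defoliated grain and 17.7, 24.8 and 0 in partial removal grain, which overlapped.

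The other described falls included genes of phenolic metabolism and of DNA repair. Dirigent protein MSTRG.17301 on 2BS, which steers the coupling of lignan precursors, had 0.0753, 0.107 and 0.0597 scaled FPKM in shaded defoliated grain, against 2.23, 2.43 and 2.98 in partial removal grain and 1.85, 3.06 and 1.98 in control grain. It fell by 1.71 ± 0.15 (adjusted p = 0.00582, limma). Deoxyribodipyrimidine photo-lyase MSTRG.70211 on 7BS, a light-driven enzyme that repairs ultraviolet damage in DNA, had 0.0430, 0.204 and 0.0691, against 1.51, 1.66 and 1.70 in partial removal grain, and fell by 1.25 ± 0.10 (adjusted p = 0.00515). Both loci passed the filter through partial removal grain alone and so had to differ. Of 10 dirigent loci, 5 had differences below 0 and 5 above 0, up to 0.54, with a median of -0.19 and 1 call. p450 MSTRG.46686 on 5AS is a heme-containing monooxygenase of unstated substrate. It had 2.75, 1.87 and 2.58, against 8.73, 10.5 and 10.6 in partial removal grain and 3.84, 8.19 and 5.22 in control grain. It fell by 1.69 ± 0.22 (adjusted p = 0.0298), a call lost when any 1 of the 6 libraries was left out.

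Further falls were smaller or lower in level. Chalcone synthase MSTRG.77302, which opens the flavonoid pathway and has no chromosome arm in its name, fell to 0.718 ± 0.0567 scaled FPKM in shaded defoliated grain, against 2.83 ± 0.753 in partial removal grain (SD, 3 libraries each; adjusted p = 0.0436, limma). It passed the filter through partial removal grain alone and so had to differ. The other chalcone synthase locus, MSTRG.7233 on 1DL, went the other way without a call, with 1.51, 1.65 and 1.64 in shaded defoliated grain and 0.0151, 1.36 and 0.0184 in partial removal grain (difference 0.95, adjusted p = 0.392). Chalcone-flavonone isomerase 3, of the next step, was lower in each shaded defoliated library at its 3 loci, with differences of -1.46 on 5BL, -0.98 on 5AL and -0.14 on 5DL (adjusted p = 0.0918, 0.116 and 0.546). Peroxidase MSTRG.57620 on 6AS fell to 0.785 ± 0.111, against 2.72 ± 0.564 in partial removal grain and 6.15 ± 0.774 in control grain (adjusted p = 0.0261), 1 of 66 peroxidase loci called. A pair of efflux carriers described as Protein DETOXIFICATION, MSTRG.74466 on 7DS and MSTRG.76434 with no arm, fell by 1.01 and 0.95 (adjusted p = 0.0418 and 0.0168), 2 of 32 loci with that description; MSTRG.76434 passed the filter through partial removal grain alone. With 1 of the 6 libraries left out, the calls of the peroxidase and of MSTRG.74466 held in 0 of 6 fits, that of chalcone synthase in 1 and that of MSTRG.76434 in 2.

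Loci with no description held the lowest p-values, and these were chosen after their values were seen. MSTRG.46080 on 5AL had 0.102, 0.385 and 0.238 in shaded defoliated grain, against 8.48, 6.26 and 6.86 in partial removal grain and 4.21, 5.97 and 4.41 in control grain (difference -2.72, adjusted p = 0.000793, limma). MSTRG.50943 on 5BS, with a GO term for oxidoreductase activity, had 0.719, 0.475 and 0.609, against 4.22, 4.21 and 4.34 in partial removal grain (difference -1.72, adjusted p = 0.000793). Both were below an FPKM of 1 in all 3 shaded defoliated libraries and passed the filter through partial removal grain alone, so they had to differ. The largest called difference was at MSTRG.63008 on 6DL, with 31.8, 16.3 and 16.1 in shaded defoliated grain and 9.52, 21.1 and 25.7 in control grain, and listed at 0 in all 3 partial removal libraries (adjusted p = 0.00515), so it too passed through 1 group alone. MSTRG.9531 on 1DS, with the term defense response, had 53.3, 13.6 and 10.7 in shaded defoliated grain, against 0.527, 1.09 and 0.733 in partial removal grain (adjusted p = 0.0436), so the rise was large and uneven, and its call held in 1 of the 6 fits that leave out a library. A pair of loci with the term aspartic-type endopeptidase activity, MSTRG.62128 on 6DL and MSTRG.56530 on 6AL, fell by 1.15 and 1.28 (adjusted p = 0.0454 and 0.0436), 2 of 97 loci with that term, and both calls were lost when any 1 of the 6 libraries was left out. Control grain was above both groups at these 2, with 57.7 ± 12.8 on 6DL, against 9.74 ± 1.05 in shaded defoliated and 22.8 ± 1.44 in partial removal grain.

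Most lists held no call. Of 58 lists, 9 held a member called lower and 0 one called higher. Over all 34682 loci 0.176% were called lower and 0.0288% higher, and only 2 of the 10 called rises had a description. Lists also share loci, so the split between lists adds nothing to the counts over all loci. The shares before adjustment that follow stand beside 6.81% higher and 6.91% lower over all loci. Ribosome biogenesis held 0 called of 25, with 11 higher (44.0%) and 0 lower before adjustment and a median of 0.29, which without scaling was -0.37 and 0.15 relative to all loci. Its highest loci were for Pescadillo, a factor of large-subunit maturation, with a summed level of 593, 488 and 473 scaled FPKM in shaded defoliated grain and 344, 324 and 396 in partial removal grain. These did not overlap, but under quantile normalization their median difference of 0.53 was 0.13, with 1 of 3 loci below 0, and without scaling all 3 were below 0 (median -0.37, and 0.15 relative to all loci), so no direction is given for them. Cytosolic ribosomal proteins held 0 called of 145, with 3 higher and 0 lower before adjustment and a median of 0.16 that was -0.11 under quantile normalization, so no direction is given for them. Cell wall genes held 0 called of 76, with 3 higher and 21 lower (27.6%) before adjustment and a median of -0.15, and glycolysis held 0 of 72, with 2 and 15 (20.8%) and -0.09. The GO term photosynthesis held 0 called of 40, with 0 higher and 9 lower (22.5%) and a median of -0.16, which was -0.33 without shaded defoliated library 2. Nearest to the threshold in it was geranylgeranyl diphosphate reductase, which makes the tail of chlorophyll, on 6BL (MSTRG.59018), with 0.863, 0.616 and 0.702 in shaded defoliated grain and 1.85, 2.14 and 1.57 in partial removal grain (difference -0.72, adjusted p = 0.0508).

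**Figure D4:**
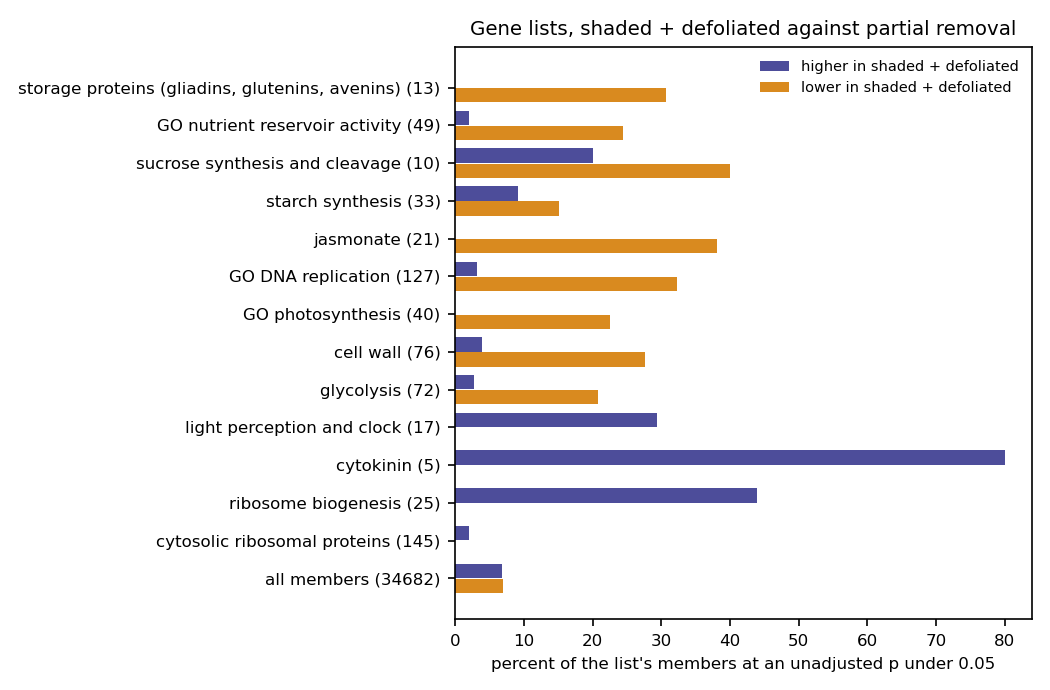
Percent of the loci of 13 gene lists and of all 34682 loci (bottom) with an unadjusted p under 0.05 (horizontal axis), split into higher and lower in shaded defoliated than in partial removal grain, with the number of loci in parentheses. Over all loci the shares are 6.81% and 6.91%, and the lists for DNA replication (32.3%) and jasmonate (38.1%) lean to lower values while that for ribosome biogenesis (44.0%) leans to higher ones, the last below 0 without scaling (median -0.37). The DNA replication list holds loci of the MCM family, and 4 of the 14 lipoxygenases in the jasmonate list had to differ by the filter.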

How the data were processed

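Poly(A) RNA libraries of grain were sequenced as paired ends on an Illumina instrument, per the labels' protocols. The authors deposited 1 table of FPKM for all 18 libraries, with gene names, descriptions and GO terms; HISAT, StringTie and edgeR are named in the submitters' processing notes, and the genome build is not given in the sources used here. Only FPKM values were used, so no count test was run and depth is known only relative to another library. FPKM of the 9 grain libraries were divided by median-ratio factors over the 71470 loci above 0 in all of them. Then log2(value + 1) was fitted with limma 3.58.1 in R 4.3.3 (1 mean per group over 9 libraries, moderated variance with a trend), for loci at an FPKM of at least 1 in at least 3 of the 6 compared libraries, with Benjamini-Hochberg adjustment over 43046 loci. A locus was called at an adjusted p under 0.05.

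Members, the 46 lists built from descriptions and the 12 from GO terms were chosen with earlier results of these data known, and patterns that matched by accident were corrected from descriptions alone. Named genes were, among called, non-overlapping loci with a description and a group mean of at least 5, the 10 largest changes each way, and for each list the called member of lowest p or, with none, the highest member; only 2 rises and 7 falls met the first part. Most of the highest members of lists without a call are not printed. Other genes are named as chosen after their values were seen, or as members of a list or family described. No rule fixed which of these members are printed, and they were picked with their values known. Whether replicate numbers in the labels pair libraries is not known. Deviations of same-numbered shaded defoliated and partial removal libraries correlated at -0.07 to 0.04 across loci. With 3 libraries a group this cannot decide it. No sequence is printed.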

Additional observations from a re-analysis of the deposited data

Results flagged for a closer look

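In shaded defoliated library 2, loci without a gene name held 89.9% of the FPKM sum, above the highest control library, at 55.4%. The 4 highest such loci held 16.5% of the sum, against 2.09% to 6.89% in the other 8 grain libraries. Of 8364 unnamed loci tested, 8 were called between shaded defoliated and partial removal grain. The part of these loci in the results was not tested beyond leaving the library out.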

How the results depend on the processing

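Each of the 71 called loci kept its direction under each of the 16 alternative settings in which it was tested. The groups overlapped at none of these loci, so leaving out a library could hardly turn a direction. Few calls were kept: 10 were called with each of the 6 compared libraries left out in turn. Of these 10, 7 had passed the filter through 1 group alone, so that they had to differ. Called loci between shaded defoliated and partial removal grain numbered 289 without scaling (16 higher, 273 lower), which shifts the median of all loci by -0.53, 21 with no filter, 45 with a minimum FPKM of 5, and 15 to 77 with 1 library left out (34 without shaded defoliated library 2, 15 without library 3). They stayed within 1.5 times of 71 with quantile normalization (86), scaling over named loci (77), a pseudocount of 0.1 (92), the 6 libraries alone (98) and array weights (91). Between shaded defoliated and control grain there were 277 without scaling, 329 with no filter, 336 with a minimum of 5 and 236 to 470 with 1 library left out. Between partial removal and control grain there were 82 without scaling, 13 with array weights, 0 with a minimum of 5 (limma, 761 at an unadjusted p under 0.05) and 4 to 9 with 1 library left out. With the replicate number as a block, the 3 counts were 12, 292 and 0 (limma, 1943 unadjusted for the last). Whether these numbers pair libraries is not known. Without shaded defoliated library 2 and control library 1, a setting chosen after seeing the data, they were 38, 176 and 17. The causes were not tested. With 3 libraries a group and FPKM in place of counts, low loci are measured least well.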
